A study of Mus musculus with 18 samples.

Results

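The libraries described here are the 5 of the UVABs group and the 3 of the Con group, 8 of the 18 libraries of a study of mouse bone marrow macrophages, compared across the 12465 genes with enough counts to test out of 16909 in the table. They were chosen by their labelled groups alone. Con is a mock treatment. UVABs macrophages were given apoptotic bodies (ABs), small vesicles into which a dying cell breaks up, made by UV induction of cells that the labels call hucMSC. 2 further groups serve as reference points: LPS (lipopolysaccharide, 5 libraries), a positive control for inflammation, and STSABs (5 libraries), which received ABs of the same source cells induced with STS. The design names both AB groups as anti-inflammatory treatments, and the series title points to linolamide in ABs and to stem cell therapy of abortion models. No genotype, strain, sex or age of the mice is given. Doses, durations and any LPS given together with the ABs are not stated in the labels. Nor is the source of the replicates, so a p-value reflects the scatter among these libraries, and that scatter may be technical. The comparison with Con therefore covers whatever the UVABs cultures received that mock cultures did not.

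Macrophages take up dying cells through receptors and bridging proteins that bind exposed phosphatidylserine, and then handle the lipid, cholesterol and nucleotide load of what they ate, a process called efferocytosis that usually comes with low inflammatory output. Bacterial LPS acts through CD14, MD-2 and TLR4. It switches on NF-kB, which drives cytokines, chemokines and its own inhibitors, and through TRIF and IRF3 a wave of type I interferon that drives antiviral genes. Activated macrophages also shift towards glycolysis, and hypoxia-inducible factor targets overlap with that shift.

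Estimated counts summed to 17851500 to 18312800 per UVABs library and 18252500 to 18346800 per Con library. CPM are counts relative to TMM-scaled library size. Levels with an error are mean ± SD (n = 3 for Con, 5 for each other group). A change, given with its SE, is on the log2 scale and comes from the quasi-likelihood fit of edgeR, with Benjamini-Hochberg adjustment over all tested genes. A gene rose or fell where its adjusted p was under 0.05. On the first principal component, with 76.4% of the variance, Con stood apart from the other groups. UVABs replicate 2 stood apart from the other UVABs libraries on the second and the third components (12.8% and 2.06% of the variance), as did STSABs replicate 2. The 22 macrophage markers summed to 14209.7 to 15141 CPM in Con and 14305 to 15972 in UVABs, and none of them was at 0.

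UVABs differed from Con in most of the transcriptome. Of the tested genes 5013 rose (40.2%) and 5288 fell (42.4%), so that 82.6% were called. By at least 2-fold, 2415 genes rose (19.4%) and 2431 fell (19.5%). In 9682 genes (77.7%) the 5 UVABs and 3 Con libraries did not overlap.

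**Figure D1:**
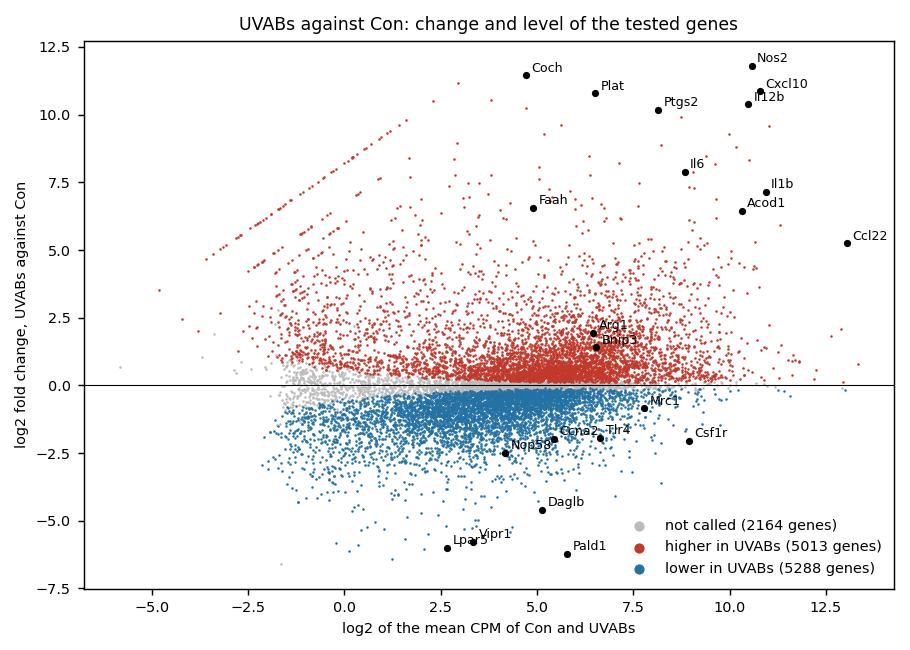
Log2 fold change of UVABs against Con (vertical axis) against the log2 of the mean CPM of both groups (horizontal axis), 1 point per tested gene, red where a gene rose (5013) and blue where it fell (5288). Nos2, Cxcl10 and Il12b stand at the upper right, and the diagonal rows at the left are genes with few or no counts in Con, whose height depends on a prior count.

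How the libraries are scaled shifts every value of this comparison. The mean TMM factor was 1.51 in Con and 0.928 in UVABs. Counts were more concentrated in UVABs: the 50 genes with the most counts took 19.8% ± 0.519 of a UVABs library (SD, n = 5) against 17.1% ± 0.110 in Con (SD, n = 3; exact two-sided permutation p = 0.0357, the smallest this design allows). The median log2 fold change of all tested genes was -0.04 with TMM, -0.31 with upper-quartile factors and -0.74 with library totals alone. Rises made up 48.7% of the calls with TMM, 36.7% (3836 against 6622 falls) with upper-quartile factors and 22.7% (2504 against 8523) with library totals. Counts of list members below use TMM, and a list is set against the 40.2% that rose, the 42.4% that fell and the median of -0.04 over all tested genes. Members named because no more than 5 of their list behaved as they did were chosen after their values were seen.

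**Figure D2:**
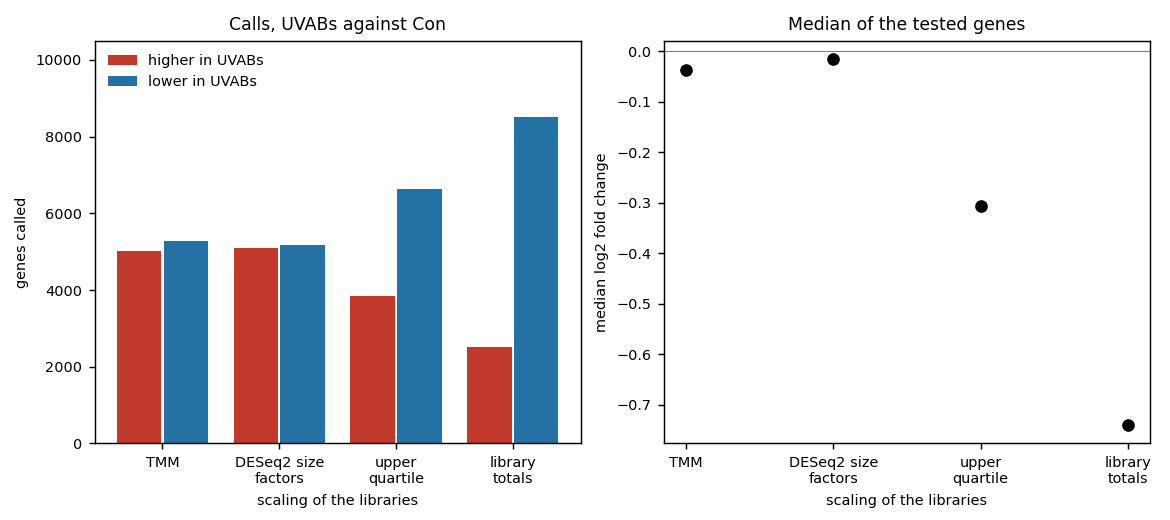
Genes called in UVABs against Con (left, bars from 0) and the median log2 fold change of the tested genes (right) under 4 ways of scaling the libraries. With TMM 5013 genes rose and 5288 fell, with library totals alone 2504 and 8523, and the median moved from -0.04 to -0.74.

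Among the 10 largest increases were the inflammatory genes Nos2, Cxcl10, Il12b and Ptgs2 and the anti-inflammatory Il10. Nos2, the inducible nitric oxide synthase, was at 0.579, 1.26 and 0.687 CPM in the Con libraries and 3024, 3634, 2702, 2972 and 2949 CPM in the UVABs libraries (11.81 ± 0.26; edgeR adjusted p = 7.76e-21). No UVABs library came near a Con library. Plat, tissue plasminogen activator, rose from 0.0964 ± 0.0751 to 182 ± 20.01 CPM (10.78 ± 0.20; 11.53 without Con replicate 2), and Ptgs2, the inducible cyclooxygenase, from 0.482 ± 0.0215 to 569.8 ± 95.5 CPM (10.19 ± 0.26). Il10, an anti-inflammatory cytokine, had 0 counts in the 3 Con libraries and 823 in the 5 UVABs libraries, at least 270.3-fold higher against a floor of 3 counts over the Con group. Nts, the neuropeptide neurotensin, also went from 0 counts to 1302, at least 428-fold higher. Coch, which encodes cochlin, and Hamp, the iron-regulating hormone hepcidin, each had 1 count in Con. The ratio was 4357 for Coch (95% Poisson interval 782 to 172122) and 2329 for Hamp (418 to 92034). Itgb8, an integrin chain that activates TGF-beta, had 3 counts in Con and a ratio of 1459 (499 to 7078). These intervals and floors cover counting error only.

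Among the 10 largest decreases were genes of 2 receptors and 2 potassium channels. No overlap between UVABs and Con libraries was a condition for naming the largest increases and decreases. Pald1, a phosphatase-domain protein, fell from 101, 109 and 118 CPM in Con to 1.46, 1.86, 1.43, 1.28 and 1.29 CPM in UVABs (-6.22 ± 0.14; edgeR adjusted p = 9.55e-21). Lpar5, a receptor for lysophosphatidic acid, fell from 12.6 ± 0.121 to 0.191 ± 0.131 CPM (-6.00 ± 0.25), and Vipr1, a receptor for vasoactive intestinal peptide, by 5.79 on the log2 scale. The channel genes Kcnk13 and Kcnj10 fell by 5.26 and 5.21 on the log2 scale. The kinase gene Aatk changed by -5.41 ± 0.13, the cullin-binding Cand2 by -5.48 ± 0.23, the centriolar Cep131 by -5.22 ± 0.12, the glycosyltransferase Galnt9 by -5.21 ± 0.16 and the RNA-binding Nanos1 by -4.98 ± 0.13.

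Inflammatory cytokines and mediators rose almost throughout. Il6 was at 4.34, 3.36 and 3.69 CPM in Con and 891, 934, 845, 923 and 950.2 CPM in UVABs (7.90 ± 0.10; edgeR adjusted p = 3.34e-24). Il1b rose from 27.3 ± 3.34 to 3886 ± 462 CPM (7.15 ± 0.12), and Il12b, which encodes the p40 chain of interleukins 12 and 23, from 2.15 ± 0.112 to 2869.6 ± 713 CPM (10.38 ± 0.36). Tnf read 9.34, 10.3 and 10.7 CPM in Con and 419, 277, 430.4, 405 and 409 CPM in UVABs (5.26 ± 0.15). Every UVABs library was above every Con library for Tnf, and replicate 2 was the lowest of the 5. Acod1, which makes itaconate, rose from 28.8 ± 1.40 to 2534 ± 109 CPM (6.46 ± 0.08), and Il27 by 8.46 ± 0.14. Of the 30 tested members 29 rose and 1 fell, with a median of 5.55; the latter was Ltb, lymphotoxin beta (-0.47 ± 0.13). The same list had a median of 6.28 in LPS against Con, which shares the Con libraries, and in the direct test of UVABs against LPS 7 of its members were higher in UVABs and 12 lower, against 28.6% and 28.8% of all tested genes.

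Chemokines rose as well, some to very high levels. Cxcl10, which attracts T cells through CXCR3, was at 2.14, 1.19 and 2.39 CPM in Con and 3429.6, 4258, 3419.6, 3313 and 3392 CPM in UVABs (10.86 ± 0.17; edgeR adjusted p = 4.38e-23). Ccl22, a ligand of CCR4, rose from 432 ± 50.8 to 16426 ± 884 CPM (5.25 ± 0.10), Ccl4 by 4.96 ± 0.10, the membrane-bound Cx3cl1 by 3.41 ± 0.07, and Ccl2, which attracts monocytes, from 30.3 ± 0.532 to 317 ± 66.3 CPM (3.38 ± 0.14). In all 20 of 25 rose, 1 fell (Ccl6, -0.39 ± 0.08) and 4 were not called (Ccl24, Ccl25, Ccl27a and Cxcl12), with a median of 2.81 in UVABs and 4.05 in LPS against Con. Against LPS itself 4 chemokines were higher and 14 lower in UVABs, Ccl2 among the lower (-1.37 ± 0.10).

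**Figure D3:**
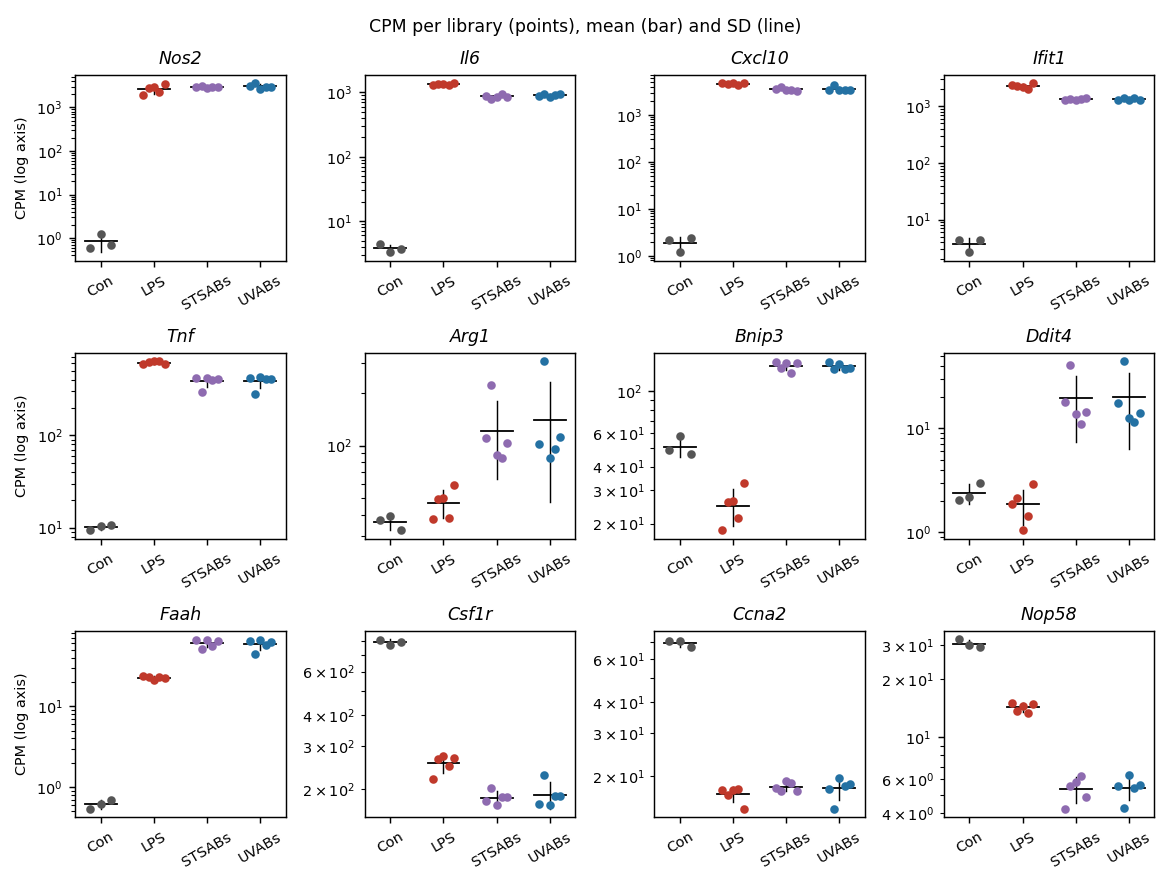
CPM of 12 genes (vertical log axes) in each library of the 4 groups, with the group mean (bar) and SD (line). Nos2, Il6, Cxcl10, Ifit1 and Tnf are near the bottom in Con alone, Bnip3 and Ddit4 are high in both AB groups only, and UVABs replicate 2 is the highest point for Arg1 (306 CPM) and Ddit4 (44.4 CPM).

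All 42 tested interferon-stimulated genes rose in UVABs (42 of 42; median 4.54; 4.81 in LPS against Con), and they did so under every scaling. Ifit1, which binds viral RNA that lacks a self cap, was at 4.34, 2.67 and 4.37 CPM in Con and 1317, 1424, 1285, 1378 and 1318 CPM in UVABs (8.47 ± 0.13; edgeR adjusted p = 4.38e-23). The related Ifit3 rose by 7.86 ± 0.12, the oligoadenylate synthetase-like Oasl1 by 9.30 ± 0.13, and Usp18, which removes ISG15 from proteins and dampens interferon receptor signalling, by 6.04 ± 0.09. Ifit1 and Ifit3 had values that were not whole in most libraries, as reads shared with close relatives give, so their levels are uncertain. Against LPS 30 of the 42 were lower and 2 higher in UVABs, Ifit1 by -0.77 ± 0.07. The promoters of this list were searched for the interferon-stimulated response element, spelled TTTCNNTTTC on either strand, in the 250 bases before each RefSeq start (GRCm38.p6; table not of the build the authors used). It was found in 35.9% of the list's 39 promoters and in 2.98% of all 32851 promoters of the table (2.88% of those of tested genes). The 120 bases before the start of Ifit1 (chr19:34640769-34640888, plus strand) are shown because they hold 2 matches, in capitals, 104 to 95 and 85 to 76 bases before the start.
Ifit1: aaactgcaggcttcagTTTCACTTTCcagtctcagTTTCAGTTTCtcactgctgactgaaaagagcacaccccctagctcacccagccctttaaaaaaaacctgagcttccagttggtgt

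Genes of Toll-like receptor and NF-kB signalling changed in both directions. Tlr4, the LPS receptor, fell from 166, 161 and 148 CPM in Con to 38.3, 47.4, 35.3, 44.9 and 41.8 CPM in UVABs (-1.93 ± 0.09; edgeR adjusted p = 2.54e-15), while its co-receptor Cd14 rose from 149.9, 148 and 151 to 1019, 1765, 956, 1039 and 1050.2 CPM (2.96 ± 0.17). Neither gene's groups overlapped, and replicate 2 held the highest Cd14. The NF-kB subunit genes Nfkb1, Nfkb2 and Relb rose by 2.37 ± 0.05, 3.06 ± 0.06 and 2.43 ± 0.07, and Ikbkb, a kinase that releases NF-kB from its inhibitor, by 1.95 ± 0.05. Of 35 genes 24 rose and 8 fell (median 1.17), or 19 and 14 with library totals.

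Genes that restrain this signalling rose together with it. Nfkbia, which encodes the NF-kB inhibitor IkB-alpha, rose from 112, 117 and 107 CPM to 1086, 1058, 1029, 939.7 and 989 CPM (3.19 ± 0.07; edgeR adjusted p = 2.36e-21). Nfkbiz, a nuclear member of the same family that is needed for a set of secondary response genes, rose by 5.20 ± 0.09, and Il1rn, the interleukin 1 receptor antagonist, from 153 ± 6.79 to 2978 ± 93.7 CPM (4.28 ± 0.09). Trim30a, which may share reads with close relatives, changed by 3.79 ± 0.09. Of 29 feedback inhibitors 28 rose and 1 fell, with a median of 2.75. The latter was Sigirr, which blocks interleukin 1 receptor signalling (-2.13 ± 0.19). An NF-kB site, spelled GGGNNTTTCC on either strand, was found in 15.2% of the 33 promoters of this list, 19.0% of 21 chemokine promoters, 13.0% of 23 cytokine promoters and 1.41% of all promoters (1.57% of those of tested genes). The 120 bases before the starts of Il6 (chr5:30012994-30013113, plus strand) and Nfkbia (chr12:55492648-55492767, minus strand) show a match in a target gene and in an inhibitor, in capitals, 44 to 35 and 29 to 20 bases before the start. The Nfkbia match reads on the opposite strand of the motif as spelled.
Il6: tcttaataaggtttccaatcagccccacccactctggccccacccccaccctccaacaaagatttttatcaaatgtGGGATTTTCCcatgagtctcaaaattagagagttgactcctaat
Nfkbia: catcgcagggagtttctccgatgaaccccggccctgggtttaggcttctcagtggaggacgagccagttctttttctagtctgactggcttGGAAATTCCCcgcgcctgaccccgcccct

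Inflammasome and co-stimulation genes rose as well. Casp4, the sensor of cytosolic LPS, rose from 9.40 ± 0.806 to 163 ± 6.94 CPM (4.12 ± 0.09), Zbp1, a sensor of Z-form nucleic acids, by 4.65 ± 0.10, and Mlkl, the executor of necroptosis, by 3.42 ± 0.09. Of 23 inflammasome and pyroptosis genes 18 rose and 4 fell (median 1.08), or 12 and 8 with library totals. Those that fell with TMM were the sensors Nlrp1a and Nlrp1b, close relatives that may share reads (-1.91 ± 0.09 and -1.69 ± 0.15), the pore-forming Gsdme (-1.56 ± 0.15) and the ATP receptor P2rx7 (-0.33 ± 0.09). The co-stimulatory genes Cd40, Cd80 and Cd86 rose by 7.28 ± 0.14, 3.21 ± 0.06 and 2.41 ± 0.06, and Cd274, which encodes the checkpoint ligand PD-L1, by 3.27 ± 0.07. Of 19 genes of MHC class II presentation and co-stimulation 13 rose and 5 fell with TMM, but 8 and 9 with library totals alone. Those that fell with TMM were genes of peptide loading and antigen processing, H2-DMa (-0.80 ± 0.08), H2-DMb1 (-0.25 ± 0.08), H2-DMb2 (-0.55 ± 0.07), H2-Ob (-0.16 ± 0.07) and Ifi30 (-0.33 ± 0.06), of which H2-Ob was not called without Con replicate 2 or 3 or UVABs replicate 2 or 4 (-0.16 to -0.10).

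Markers of alternative activation split. Arg1, which breaks down arginine, read 37.1, 39.3 and 32.5 CPM in Con and 102, 306, 85.0, 96.1 and 112 CPM in UVABs (1.95 ± 0.37; edgeR adjusted p = 4.53e-05). The groups did not overlap, and the change was 1.44 without UVABs replicate 2, which held the highest value. Mrc1, the mannose receptor, fell from 296, 294 and 263 CPM to 139.7, 166, 149, 176 and 158 CPM (-0.85 ± 0.07). Clec10a, a lectin whose reads may be shared with a relative, and Egr2, a transcription factor of the interleukin 4 response, fell by 3.24 and 2.54 on the log2 scale, and Il10ra, the interleukin 10 receptor chain, rose by 1.81 ± 0.05. Cd163, the haptoglobin-hemoglobin receptor, chosen after its value was seen, fell from 1.57 ± 0.217 to 0.119 ± 0.0949 CPM (-3.65 ± 0.37). Of 29 markers 13 rose and 12 fell, close to the shares over all genes (median 0.03); with library totals alone 7 rose and 15 fell.

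The genes by which macrophages recognise and engulf apoptotic cells did not move as a group. Mertk, a phosphatidylserine receptor kinase, rose from 124, 128 and 123 CPM in Con to 388, 274, 380.3, 403 and 387 CPM in UVABs (1.55 ± 0.12; edgeR adjusted p = 2.98e-11), and the related Axl from 708 ± 38.7 to 1718 ± 167 CPM (1.28 ± 0.08). Mertk was lower in UVABs than in LPS (-0.59 ± 0.09), and Axl differed from LPS by 0.05 ± 0.07, not past the threshold. Cd47, the do-not-eat-me signal, rose by 1.76 ± 0.04, and Xkr8, a scramblase that exposes phosphatidylserine, by 3.78 ± 0.08. Cd300lb, a receptor for phosphatidylserine, fell by 3.72, and Elmo2, which links engulfment receptors to Rac1, by 1.24 on the log2 scale. Timd4, another phosphatidylserine receptor, was singled out after its value was seen: it had 0 counts in Con and 24 in UVABs, at least 7.88-fold higher against the same floor. Over the list 16 rose, 16 fell and 1 was not called of 33 (median 0.08), and with library totals alone 9 rose and 21 fell.

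Genes that make and break down fatty acid amides were listed because the series title names linolamide, with earlier results of these data known. Faah, the hydrolase that breaks down fatty acid amides, was at 0.543, 0.614 and 0.687 CPM in Con and 64.6, 44.9, 65.6, 56.9 and 62.2 CPM in UVABs (6.57 ± 0.17; edgeR adjusted p = 2.12e-19). No UVABs value came near a Con value, and Faah was also higher in UVABs than in LPS (1.37 ± 0.09) while LPS was above Con (5.19 ± 0.18). Naaa, the lysosomal acid amidase for related lipids, fell from 701 ± 44.0 to 229 ± 19.3 CPM (-1.61 ± 0.07), Daglb, which makes the endocannabinoid 2-arachidonoylglycerol, by 4.59, and the cannabinoid receptor gene Cnr2 by 3.28 on the log2 scale. Of the 22 genes of this list 6 rose and 11 fell (median -0.43). In LPS against Con 6 rose and 12 fell (median -0.43). In the test of UVABs against LPS 7 were higher and 7 lower in UVABs.

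Cholesterol and fatty acid genes varied among themselves. Abca1, the cholesterol efflux pump, read 167, 179 and 168 CPM in Con and 183, 251, 168, 232 and 211 CPM in UVABs (0.29 ± 0.12; edgeR adjusted p = 0.0323), but this rise was not called with upper-quartile factors (0.02) and with library totals alone the gene fell (-0.42). It was also not called without Con replicate 1 or 3 or without UVABs replicate 2, 4 or 5 (0.21 to 0.28). Of 17 LXR targets and efflux genes 12 rose and 5 fell (median 0.39), against 4 and 8 with library totals. Soat1, which stores cholesterol as esters, and Scd1 and Lpl, of fatty acid desaturation and triglyceride hydrolysis, fell too (-1.07 ± 0.06, -0.58 ± 0.12 and -0.32 ± 0.10). Among them Npc2, which moves cholesterol out of lysosomes, and the GTPase gene Arl4c rose by 1.35 ± 0.06 and 0.98 ± 0.05, while Npc1, the partner of Npc2, fell by 1.60 and the desaturase Scd2, whose reads may be shared, by 1.84. In cholesterol synthesis Idi1 and Pmvk, enzymes of the mevalonate pathway, rose by 3.73 ± 0.14 and 2.55 ± 0.10, and Dhcr7, the last enzyme of the pathway, fell by 2.86. Acat2 (-0.66 ± 0.08), Mvd (-0.45 ± 0.12) and Ebp (-0.22 ± 0.07), of the same pathway, fell too. Of 24 such genes 13 rose and 5 fell (median 0.50, against -0.01 in LPS against Con), or 10 and 12 with library totals. Fatty acid oxidation and PPAR targets fell more often than they rose (15 and 8 of 24; median -0.51): Ppargc1b, a coactivator of mitochondrial genes, fell by 4.56, Pparg by 2.21 and Hadh, an enzyme of beta-oxidation, by 1.78, while the dehydrogenase gene Acadl rose by 1.58 ± 0.06.

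**Figure D4:**
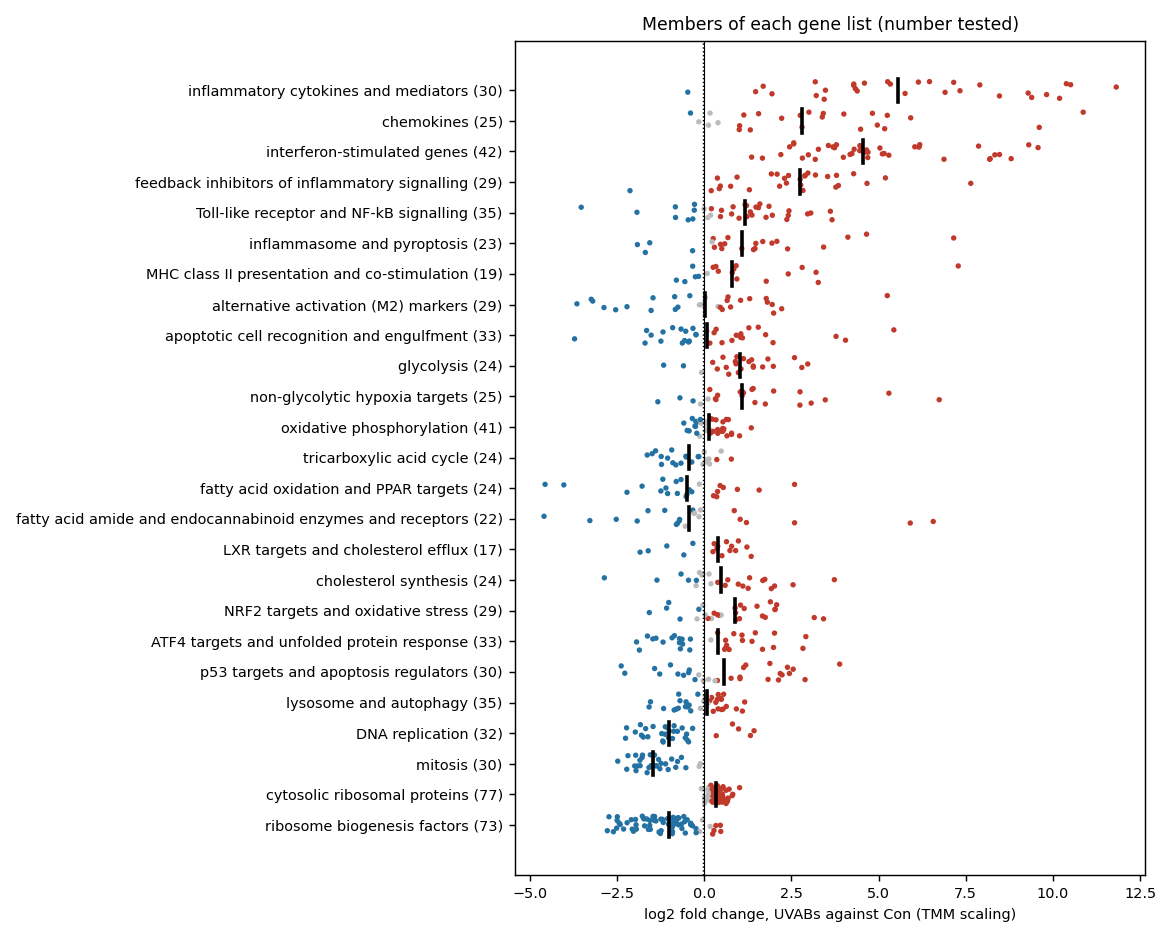
Log2 fold change of UVABs against Con (horizontal axis, TMM scaling) of each tested member of 25 gene lists (rows, number tested in brackets), red where a gene rose, blue where it fell and grey where it was not called, with the list median as a black bar and the median of all genes as a dotted line. The interferon-stimulated genes lie wholly to the right (median 4.54) and the mitosis genes to the left (median -1.47).

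Most glycolysis and hypoxia genes rose in UVABs, fewer of them with library totals than with TMM. Pfkfb3, which makes the activator of phosphofructokinase, rose from 51.8 ± 3.36 to 406 ± 12.5 CPM (2.97 ± 0.11), the hexose transporter Slc2a6 by 2.80 ± 0.07, the hexokinase Hk3 by 1.83 ± 0.07 and the phosphofructokinase Pfkp by 1.68 ± 0.07. Of 24 glycolysis genes 21 rose and 2 fell (median 1.02; 0.37 in LPS against Con), or 15 and 6 with library totals, and in the test against LPS 20 were higher and 2 lower in UVABs. The glycolysis genes that fell against Con were Pfkm, the muscle-type phosphofructokinase, and Pfkfb4 (-1.16 ± 0.12 and -0.59 ± 0.09). Bnip3, a mitophagy receptor induced by hypoxia, read 48.7, 57.8 and 46.5 CPM in Con and 142, 131, 138, 131 and 132 CPM in UVABs (1.40 ± 0.11; edgeR adjusted p = 1.11e-10), without overlap. It moved the other way in LPS against Con (-1.03 ± 0.11), and the difference between UVABs and LPS was 2.44 ± 0.10 (adjusted p = 9.64e-14 in the same edgeR fit). Plod2, a collagen lysyl hydroxylase, rose by 6.74 ± 0.27, the prolyl hydroxylase subunit P4ha1 by 1.45 ± 0.06, Ndrg1 by 2.74 ± 0.09 and Mxi1, a MYC antagonist, by 1.75 ± 0.10. Vegfa, singled out after its value was seen, rose from 101 ± 1.38 to 401 ± 123 CPM (1.99 ± 0.22), and UVABs exceeded LPS by 2.16 ± 0.18.

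Over the list of 25 non-glycolytic hypoxia targets 20 rose and 3 fell (Epas1 (-1.33 ± 0.26), Ankrd37 (-0.70 ± 0.20) and Car9 (-0.32 ± 0.12); median 1.09), where LPS against Con had a median of -0.35. With upper-quartile factors 16 rose and 5 fell, and with library totals 15 and 9. Car9 was not called without Con replicate 3 (-0.28). In the direct test 23 were higher and 1 lower in UVABs than in LPS (median 1.13). The hypoxia response core, spelled ACGTG on either strand, was in 55.6% of the list's 27 promoters, 42.9% of the 35 glycolysis promoters and 16.6% of all promoters (21.4% of those of tested genes). Over all genes that changed by at least 2-fold it was in 18.3% of promoters of those higher and 21.3% of those lower in UVABs. Bnip3, which goes in opposite directions in UVABs and LPS, is shown for its palindrome, where 2 overlapping matches, 1 per strand, stand in capitals 108 to 103 bases before the start (chr7:138909507-138909626, minus strand).
Bnip3: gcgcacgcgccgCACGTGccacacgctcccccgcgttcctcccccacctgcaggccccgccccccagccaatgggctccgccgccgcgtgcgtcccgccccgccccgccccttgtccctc

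Oxidative phosphorylation genes gave no direction that held under every scaling, while genes listed for the tricarboxylic acid cycle fell more often than they rose. Of 41 oxidative phosphorylation genes 20 rose and 10 fell with TMM (median 0.15), 13 and 20 with upper-quartile factors and 2 and 33 with library totals. Cycs, cytochrome c, rose from 56.4 ± 4.97 to 144 ± 6.61 CPM (1.35 ± 0.07). Uqcrh, Uqcrfs1 and Cox6c rose by 0.78 ± 0.07, 0.69 ± 0.05 and 0.54 ± 0.07 with TMM, and with library totals alone Uqcrh was not called (0.08) and the other two turned negative. In the tricarboxylic acid cycle 15 of 24 genes fell and 2 rose (median -0.43), the latter being citrate synthase, Cs (0.78 ± 0.05), and Ogdh (0.36 ± 0.04), which fell with library totals alone (-0.34). The isocitrate dehydrogenase genes Idh1, Idh2 and Idh3a fell by 1.63, 1.23 and 1.39 on the log2 scale, and the fumarase gene Fh1 by 1.49. The list also holds genes of cytosolic enzymes, Idh1 among them.

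Stress genes rose in part. Sod2, the mitochondrial superoxide dismutase and an NF-kB target, rose from 59.3 ± 1.11 to 635 ± 23.7 CPM (3.42 ± 0.07), the metallothionein Mt2 by 3.15 ± 0.13, thioredoxin (Txn1) by 2.03 ± 0.06 and Keap1, which holds NRF2 in check, by 2.03 ± 0.06. Of 29 NRF2 and oxidative stress genes 19 rose and 5 fell (median 0.89), or 15 and 9 with upper-quartile factors and 15 and 12 with library totals. Both subunits of the enzyme that starts glutathione synthesis were among those that fell with TMM, Gclc (-1.57 ± 0.12) and Gclm (-1.02 ± 0.11), with catalase, Cat (-1.08 ± 0.07), Gpx1 (-0.69 ± 0.06) and Taldo1 (-0.15 ± 0.06; not called without Con replicate 3, -0.12). ATF4 targets and unfolded protein response genes split: Atf3, Hspa5 (the chaperone BiP) and Ppp1r15a, which reverses the translation block of the stress response, rose by 2.83 ± 0.08, 1.99 ± 0.08 and 2.02 ± 0.08, the amino acid transporter Slc7a5 fell by 1.86, and 17 of 33 rose and 15 fell (10 and 17 with library totals). Nupr1, a stress-induced chromatin protein chosen after its value was seen, rose from 10.5 ± 0.532 to 78.9 ± 12.4 CPM (2.91 ± 0.14), and UVABs stood above LPS by 1.59 ± 0.11.

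Apoptosis regulators changed in both directions. Birc3, an inhibitor of apoptosis and NF-kB target, rose from 52.7 ± 2.64 to 391 ± 13.5 CPM (2.89 ± 0.06), and Cflar, the caspase 8 inhibitor FLIP, by 3.88 ± 0.12. The near-identical Bcl2a1b and Bcl2a1d changed by 2.39 ± 0.07 and 2.23 ± 0.07; like Cflar they had values that were not whole in most libraries and are uncertain. Of 30 p53 targets and apoptosis regulators 16 rose and 10 fell (median 0.57), or 14 and 15 with library totals. Lysosome and autophagy genes had no direction that held under every scaling (16 rose and 14 fell of 35 with TMM, 3 and 30 with library totals). Among them Lamp2, a lysosomal membrane protein, rose by 1.10 ± 0.06, and Atg7, Gusb and Hexa fell by 1.58, 1.16 and 0.81.

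Cell cycle genes fell. Ccna2, cyclin A2, read 71.3, 70.8 and 66.9 CPM in Con and 17.8, 14.8, 19.7, 18.3 and 18.7 CPM in UVABs (-1.96 ± 0.07; edgeR adjusted p = 7.74e-17), with no overlap. Cdc20, the activator of the anaphase-promoting complex, fell from 39.3 ± 1.86 to 10.1 ± 1.17 CPM (-1.95 ± 0.08), Birc5 (survivin) by 1.78 and the kinesin Kif23 by 2.22. Of 30 mitosis genes 28 fell, 0 rose and 2, Cenpe and Tpx2, were not called (median -1.47), and 30 of 30 fell with upper-quartile factors and 30 with library totals. In DNA replication 27 of 32 fell and 5 rose (median -1.01), with the helicase subunits Mcm2 and Mcm7 at -1.68 ± 0.07 and -1.62 ± 0.07, the ribonucleotide reductase subunit Rrm2 at -1.47 ± 0.07 and E2f2 at -1.83 ± 0.09. The replication genes that rose were Mcm10 (0.81 ± 0.13), Gins2 (1.43 ± 0.09), Gins3 (0.35 ± 0.10), Rfc3 (1.33 ± 0.08) and Tyms (0.98 ± 0.08), of which Gins3 fell with library totals alone (-0.36). Both lists fell in LPS against Con as well. There 29 mitosis genes fell and 0 rose (median -1.67), and 27 DNA replication genes fell and 5 rose (median -0.93). Cdkn1a, the cell cycle inhibitor p21, singled out after its value was seen, rose from 284 ± 23.2 to 1665 ± 109 CPM (2.55 ± 0.09) in UVABs against Con. A CCAAT box, on either strand, was in 79.2% of 24 mitosis promoters, 65.4% of 26 DNA replication promoters and 33.8% of all promoters (35.4% of those of tested genes). Cdc20 (chr4:118437344-118437463, minus strand) is shown for its 2 matches, in capitals, 53 to 49 and 8 to 4 bases before the start.
Cdc20: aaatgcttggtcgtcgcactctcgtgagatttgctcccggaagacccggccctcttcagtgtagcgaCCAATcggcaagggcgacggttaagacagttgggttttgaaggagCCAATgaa

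Genes for making ribosomes fell, while those for the ribosomal proteins themselves depended on the scaling. Ribosome biogenesis factors are a list added after the genes lower than in both Con and LPS had been seen. This choice favours falls in both comparisons, so the counts are no independent test. Against Con 65 of 73 fell and 5 rose (median -1.02, with -0.44 in LPS against Con). Against LPS 64 of 73 were lower and 2 higher in UVABs. Those that rose against Con were Wdr43 (0.28 ± 0.08), Utp3 (0.46 ± 0.07), Taf1b (0.33 ± 0.09), Tcof1 (0.24 ± 0.06) and Dcaf13 (0.48 ± 0.06), and all 5 fell with library totals alone. Nop58, a core protein of the box C/D particles that guide rRNA methylation, fell from 32.1, 30.1 and 29.3 CPM to 5.52, 4.25, 6.35, 5.42 and 5.58 CPM (-2.49 ± 0.10; edgeR adjusted p = 2.09e-16). The LPS libraries read 15.0, 13.7, 14.5, 13.3 and 14.9 CPM for Nop58. Nop58 was named under a rule that required no overlap of UVABs with Con or with LPS, so this separation was set by the choice. Polr1b, the second subunit of RNA polymerase I, and Dkc1, dyskerin, chosen after their values were seen, fell by 2.78 and 2.73. Of 77 cytosolic ribosomal protein genes 63 rose and 0 fell with TMM (median 0.33), 19 rose and 7 fell with upper-quartile factors, and 0 rose and 64 fell with library totals. Rpl34, Rpl27, Rps20 and Rps27 (uncertain, with shared reads) rose by 0.54 ± 0.05, 0.51 ± 0.05, 0.63 ± 0.07 and 0.63 ± 0.07 with TMM, and each turned negative with library totals. On the scale of library totals, their share of all counts was 6.45% ± 0.313 in Con (SD, n = 3) and 4.86% ± 0.296 in UVABs (SD, n = 5; exact two-sided permutation p = 0.0357, the smallest this design allows), with 3.84% ± 0.168 in LPS.

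Macrophage markers changed one by one while the range of their sum overlapped between Con and UVABs. Of 22 markers 10 rose and 9 fell (6 and 15 with library totals), and Cd68, Lyz1 and Lyz2 were at -0.12 ± 0.07, -0.11 ± 0.08 and -0.11 ± 0.07, not called (Cd68 was called without LPS replicate 1 or UVABs replicate 2, at -0.13 and -0.15). With upper-quartile factors Cd68, Lyz1 and Lyz2 were called lower (-0.39, -0.38 and -0.38), as they were with library totals (-0.83, -0.82 and -0.82). The Fc receptor genes Fcgr4 and Fcgr1 and their signalling chain Fcer1g rose by 4.24 ± 0.13, 1.74 ± 0.05 and 1.48 ± 0.05. Csf1r, the receptor for the growth factor on which these cells depend, singled out after its value was seen, fell from 809.9, 771 and 793 CPM to 174, 229.5, 172, 188 and 188 CPM (-2.06 ± 0.08; edgeR adjusted p = 1.98e-16). The groups did not overlap, and replicate 2 held the highest of the UVABs values.

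Markers of other cell types that a bone marrow culture could hold also moved, and in these bulk libraries more cells of a type and more RNA per cell cannot be told apart. Neutrophil and granulocyte precursor markers summed to 1485 to 1781 CPM in Con, 2517 to 3317 in LPS and 4262 to 5456 in UVABs; 13 of 17 rose and 2 fell, Retnlg (-0.70 ± 0.25; not called without Con replicate 1, -0.63) and Cxcr2, with Lcn2, also an inflammation-induced gene of macrophages, at 3.15 ± 0.13, S100a8 at 1.83 ± 0.12, Csf3r at 1.91 ± 0.12 and Cxcr2, uncertain, at -2.04 ± 0.18. Dendritic cell markers summed to 1761 to 1921 CPM in Con, 7221 to 7762 in LPS and 7411 to 8378 in UVABs. In UVABs 10 of 13 rose, among them Fscn1 (4.50 ± 0.12), Ccr7 (4.41 ± 0.09) and the interferon-regulated Irf8 and Bst2 (3.38 ± 0.11 and 2.81 ± 0.08). Itgax (-0.21 ± 0.06), Cd209a (-2.87 ± 0.26) and Clec9a (-0.81 ± 0.15) fell. In LPS against Con 10 of the 13 rose and 2 fell. Mast cell and basophil markers summed to 113 to 127 CPM in Con, 528 to 581 in LPS and 690.3 to 834 in UVABs, and 3 of 8 tested rose: Hdc, which makes histamine and is also an inflammatory mediator, by 4.59 ± 0.11, Gata2 by 1.34 ± 0.16 and Mcpt8 by 0.49 ± 0.22, a call lost with upper-quartile factors (0.22) and without Con replicate 1 or 3 or UVABs replicate 1 or 3 (0.36 to 0.47). Of the genes called, only Hdc rose by more than the sum did. Cpa3 was at 0.35 ± 0.17, not called unless LPS replicate 1 or UVABs replicate 2 or 4 was left out (0.35 to 0.46). T and NK cell markers summed to 16.3 to 17.1 CPM in Con, 30.7 to 37.6 in LPS and 40.2 to 48.0 in UVABs. Of 8 tested 5 rose in UVABs, with Lck at 5.22 ± 0.19, Gzmb at 3.73 ± 0.47, Cd8a at 1.93 ± 0.27, Thy1 at 1.27 ± 0.19 and Cd4 at 0.54 ± 0.15 (-0.16 with library totals). The markers Cd2 and Klrb1c fell (-1.77 ± 0.23 and -3.89 ± 0.36).

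B cell and plasma cell markers summed to 4.53 to 5.05 CPM in Con and 3.38 to 5.81 CPM in UVABs, and of 5 tested 2 rose, among them Cd79b (0.82 ± 0.24; not called with library totals, 0.12), and Blk fell (-1.22 ± 0.29). Stromal markers summed to 124 to 125 CPM in Con, 247 to 261 in LPS and 201 to 218 in UVABs. In UVABs 7 of 13 rose, among them Vcam1 (2.35 ± 0.13), Pdgfrb (1.86 ± 0.19) and Eng (1.71 ± 0.07). Lepr and Nt5e fell (-1.80 ± 0.14 and -0.38 ± 0.10), and the fibroblast collagen gene Col1a1 was at 0.77 ± 0.71, not called. The erythroid genes Hbb-bs and Alas2 had no counts in any of these 8 libraries, Hbb-bt rose (1.77 ± 0.16), and Tfrc, the transferrin receptor, which proliferating cells also express, fell from 119 ± 2.46 to 15.9 ± 1.93 CPM (-2.90 ± 0.10). Osteoclast markers summed to 530.0 to 538 CPM in Con and 339.9 to 443 in UVABs, with 3 of 9 higher and 5 lower: Acp5 and Ctsk rose by 1.59 ± 0.11 and 0.40 ± 0.09 (Ctsk fell with library totals, -0.31), Nfatc1 (-0.94 ± 0.07), Atp6v0d2 (-1.89 ± 0.08), Itgb3 (-0.90 ± 0.14), Ocstamp (-0.62 ± 0.12) and Dcstamp (-0.39 ± 0.10) fell, and Calcr went from 0 counts to 35, at least 11.5-fold. In LPS the osteoclast markers summed to 417 to 461 CPM, and the B cell and plasma cell markers to 6.05 to 8.16 CPM. The part of other cells in the changes above was not tested.

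Against LPS, 57.4% of the tested genes differed in UVABs: 3566 were higher (28.6%) and 3595 lower (28.8%), 586 (4.70%) and 284 (2.28%) of them by at least 2-fold. The 5 genes named for being higher in UVABs than in both Con and LPS were Ddit4, Hilpda, Gls2, Grasp and Ramp3. Ddit4, an mTORC1 inhibitor, read 2.03, 2.17 and 2.96 CPM in Con, 1.86, 2.12, 1.04, 1.44 and 2.88 CPM in LPS and 17.6, 44.4, 12.5, 11.6 and 14.2 CPM in UVABs, with the highest value in replicate 2 (3.07 ± 0.49 against Con; 2.54 without that library). Hilpda, a lipid droplet protein, rose from 4.93 ± 0.402 to 54.7 ± 24.9 CPM (3.47 ± 0.34; 2.46 ± 0.27 against LPS), the glutaminase Gls2 by 5.21 ± 0.51, the scaffold gene Grasp by 2.32 ± 0.20 and Ramp3, a receptor-modifying protein, by 2.31 ± 0.56. Replicate 2 was the highest library for these genes too, and without it the changes were 3.15, 4.82, 2.15 and 1.53, all still called. Those named for being lower than in both were Tsr1, Gnl3, Wdr75 and Nop58, of ribosome biogenesis, and Pprc1, a coactivator related to PGC-1. Tsr1 fell from 31.0, 26.9 and 25.9 CPM in Con to 5.58, 3.95, 4.93, 5.07 and 4.99 CPM in UVABs (-2.51 ± 0.11), with LPS between them at 16.0, 13.3, 13.5, 14.2 and 16.1 CPM.

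In LPS against Con 40.0% of tested genes rose and 43.0% fell (83.0% called). A further 5 genes were named because they differed from Con in LPS and, in the opposite direction, between UVABs and LPS, but were not called in UVABs against Con. Ccl24, a chemokine for eosinophils, read 0.977, 0.866 and 0.615 CPM in Con, 1.15, 0.359, 1.37, 0.640 and 1.88 CPM in UVABs and 13.6 ± 4.11 in LPS; UVABs differed from Con by 0.40 ± 0.44 (95% interval -0.54 to 1.33) and LPS by 4.04 ± 0.31. The UVABs and Con libraries of Ccl24 overlapped. Klrb1b, a lectin-like receptor, Pcgf2, a Polycomb protein, Pdgfa, a growth factor, and Fos, of the AP-1 factor, differed from Con by 0.19 ± 0.17, 0.06 ± 0.13, 0.28 ± 0.14 and 0.35 ± 0.36 in UVABs and by -2.63 ± 0.19, -1.83 ± 0.15, -1.60 ± 0.17 and -1.53 ± 0.39 in LPS. With library totals alone, Klrb1b, Pcgf2 and Pdgfa fell below Con in UVABs (-0.51, -0.65 and -0.42). Pdgfa was called without STSABs replicate 2 (0.28) or UVABs replicate 4 (0.38).

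**Figure D5:**
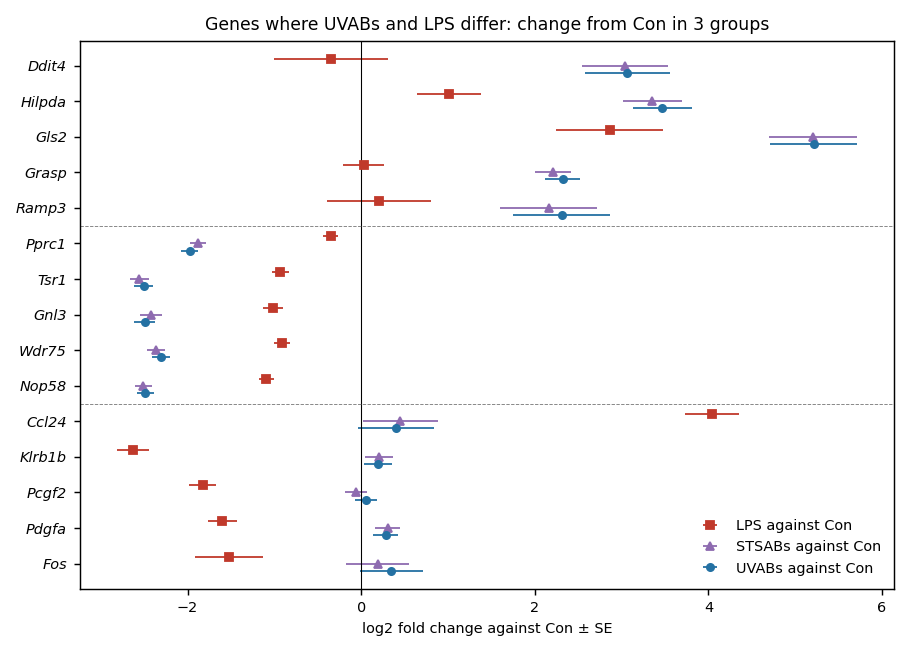
Log2 fold change against Con ± SE (horizontal axis) in LPS (squares), STSABs (triangles) and UVABs (circles) for 15 genes, in blocks of 5: higher in UVABs than in Con and LPS, lower than in both, and not called between UVABs and Con. All 3 contrasts share the Con libraries; Ddit4 stands at 3.07 in UVABs and -0.35 in LPS, and Ccl24 at 0.40 and 4.04.

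No difference between UVABs and STSABs passed the threshold in any gene. No gene (0 of 12465) was called between them by edgeR, where 198 had an unadjusted p under 0.05, or by DESeq2, where 151 had. Same-numbered libraries of these 2 groups deviated together (r from 0.12 to 0.54, the highest between the libraries numbered 2). Pairs of different numbers were not compared, so whether the numbers pair these libraries is open. If they do, the errors of an unpaired test are too wide. A fit of the 10 AB libraries alone, with the number as a block, was added after seeing the data. It called 0 of 11732 genes, and 457 had an unadjusted p under 0.05. In each of these fits, the genes with an unadjusted p under 0.05 were less than a 0.05 share of those tested. A 0.05 share would pass on average if no gene differed. In the unpaired fit, among the 9080 genes with at least 5 CPM in either group the absolute log2 difference had a median of 0.033, was under 0.13 for 95% of genes and was at most 0.36. For Nos2 the difference was 0.05 ± 0.12 (95% interval -0.20 to 0.29), for Faah -0.04 ± 0.09 (-0.23 to 0.14) and for Bnip3 -0.01 ± 0.09 (-0.21 to 0.18), and in the paired fit 0.04 ± 0.03, -0.05 ± 0.04 and -0.02 ± 0.03.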

How the data were processed

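RNA-seq gave 18 libraries. What the authors deposited is 1 matrix of estimated counts per gene symbol, not normalized; HISAT2 and mm39 were used per the submitters' processing notes, while which tool counted the reads, with what annotation and strand setting, is not given in the sources used here. Of the values 6.35% were not whole (tolerance 0.005), so they were rounded. Overlapping and antisense genes and close paralogs are uncertain. Totals were 17588400 to 18675300 per library.

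Genes were filtered with filterByExpr by group (12465 of 16909, 99.97% of counts), scaled by TMM and tested with edgeR 4.0.16 (R 4.3.3) by the quasi-likelihood F-test over all 18 libraries with group means only, with Benjamini-Hochberg adjustment at 0.05. The SE is the absolute log2 fold change over the square root of F. The members and the 33 gene lists were chosen with earlier results of these data known, and a further list was added after seeing the data. Named genes are a panel, the 10 largest changes in each direction (no overlap, and a mean of at least 5 CPM in 1 group), from each list up to 4 members by adjusted p, 5 genes in each direction that differ from both Con and LPS (no overlap with either, and the same minimum), and 5 that differ from Con in LPS and not in UVABs. Symbols of predicted genes were dropped, and not every gene so named is printed. Same-numbered UVABs and Con libraries did not deviate together (r from -0.09 to 0.00), and pairs of different numbers gave -0.15 to 0.16. With so few libraries this shows no pairing of UVABs with Con but cannot exclude it. Same-numbered UVABs and STSABs libraries did deviate together (r from 0.12 to 0.54), but pairs of different numbers were not compared. No 2 libraries of a group agreed within sampling noise. Promoter sequences are RefSeq's, GRCm38.p6, not the authors' build. Alternatives were DESeq2 size factors, upper-quartile factors, library totals, DESeq2 1.42.0, no filter and a stricter filter (minimum count 50), fits restricted to the compared groups, or to replicates 1 to 3, the replicate number as a block, each library left out and, added after seeing the data, both AB libraries numbered 2 left out and a paired fit of the AB groups alone.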

Additional observations from a re-analysis of the deposited data

Results flagged for a closer look

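In 42 of 239 named genes and shares, 1 of the 5 UVABs libraries lay further from the rest than Dixon's test at 95% allows, and in 32 of these it was replicate 2. By chance about 1 group in 20 would be picked out, and genes of 1 library are not independent of each other. UVABs replicate 2 was the highest library for Arg1 306 CPM (others 85.0 to 112), Cxcl10 4258 CPM (others 3313 to 3429.6), Cd14 1765 CPM (others 956 to 1050.2), Slc2a6 374 CPM (others 329 to 339.7), Pfkfb3 428 CPM (others 398 to 403), Mxi1 219.7 CPM (others 159.8 to 173), Fh1 22.8 CPM (others 19.97 to 20.7), Acadl 192 CPM (others 172 to 177), Lepr 20.2 CPM (others 11.1 to 12.7), Ddit4 44.4 CPM (others 11.6 to 17.6), Hilpda 98.6 CPM (others 40.9 to 50.6), Gls2 41.5 CPM (others 13.4 to 19.1), Grasp 29.5 CPM (others 16.2 to 19.1), Ramp3 100.2 CPM (others 18.1 to 25.0), Klrb1b 69.5 CPM (others 36.4 to 41.2), Csf1r 229.5 CPM (others 172 to 188), Vegfa 619 CPM (others 326 to 362), Ccl6 3207 CPM (others 2347 to 2568), Pfkfb4 26.4 CPM (others 18.5 to 19.9) and Ctsk 42.5 CPM (others 31.5 to 34.4). It was the lowest library for Tnf 277 CPM (others 405 to 430.4), Il12b 1619 CPM (others 3075 to 3429), Mertk 274 CPM (others 380.3 to 403), Axl 1423 CPM (others 1758 to 1821), Nts 9.46 CPM (others 16.1 to 17.5), Idi1 259 CPM (others 325 to 343), Naaa 195 CPM (others 234 to 241), Pfkp 813 CPM (others 919.9 to 956), Cflar 665 CPM (others 855 to 927), Csf3r 53.6 CPM (others 71.3 to 77.2), Tfrc 12.5 CPM (others 16.4 to 17.1) and H2-Ob 42.7 CPM (others 52.6 to 56.5). Other libraries stood apart for Elmo2 at 36.6 CPM in replicate 4 (the highest; others 33.6 to 34.4), Uqcrfs1 at 151 CPM in replicate 3 (the highest; others 141 to 143), Fcer1g at 689.5 CPM in replicate 4 (the lowest; others 723 to 728), Klrb1c at 0.0594 CPM in replicate 3 (the lowest; others 0.116 to 0.121), Cd2 at 0.408 CPM in replicate 4 (the lowest; others 0.646 to 0.719), Sigirr at 0.815 CPM in replicate 4 (the lowest; others 1.19 to 1.33), Nlrp1a at 3.40 CPM in replicate 1 (the lowest; others 4.07 to 4.31), Acat2 at 7.45 CPM in replicate 4 (the lowest; others 7.94 to 8.14), Car9 at 4.48 CPM in replicate 4 (the highest; others 3.44 to 3.70) and Gclc at 6.24 CPM in replicate 1 (the lowest; others 8.44 to 9.03). Dixon's test takes no account of counting error, and Klrb1c and Cd2 rest on few reads per library. What set replicate 2 apart was not tested.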

How the results depend on the processing

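Scaling was the choice that moved the results most. With library totals alone 2504 genes rose and 8523 fell in UVABs against Con, 1409 and 5006 by at least 2-fold, and values turned negative, against the sign with TMM, for these named genes called under at least 1 of both scalings: Abca1 -0.42, Uqcrfs1 -0.012, Cox6c -0.17, Rpl34 -0.16, Rpl27 -0.20, Rps27 -0.078, Rps20 -0.078, Mcpt8 -0.21, Klrb1b -0.51, Pcgf2 -0.65, Pdgfa -0.42, Ogdh -0.34, Gins3 -0.36, Wdr43 -0.42, Utp3 -0.24, Taf1b -0.37, Tcof1 -0.46, Dcaf13 -0.23, Cd4 -0.16 and Ctsk -0.31. Those called under neither that also turned negative were Cpa3 -0.35, Ccl24 -0.30, Fos -0.36, Ccl27a -0.53 and Cxcl12 -0.57. With upper-quartile factors Tcof1 turned negative (-0.027), as did, called under neither, Klrb1b -0.075, Pcgf2 -0.21, Ccl27a -0.098 and Cxcl12 -0.14. Which scaling lies nearer to the RNA content of the cells was not tested. Of the named genes 8 lost their call with upper-quartile factors (Abca1, Mcpt8, Ogdh, Gins3, Wdr43, Taf1b, Cd4 and Ctsk) and 4 kept their sign but lost it with library totals (Uqcrh, Cd79b, Cs and Mcm10). A call was gained by 5 with upper-quartile factors (Cd68, Lyz1, Lyz2, Cenpe and Tpx2), all lower in UVABs. With library totals 6 gained one at the same sign, these and Ccl25. All other settings kept the counts within 1.5 times: across the libraries left out one at a time they were 4868 to 5043 higher and 5150.0 to 5353 lower, with the DESeq2 test 5077 and 5121, with no filter 5209 and 5640, and without replicate 2 of both AB groups 5069 and 5418. Adding a block for the replicate number gave 5040 rises and 5317 falls. Whether these numbers pair UVABs with Con is not stated in the labels. The block changed no call between UVABs and STSABs, where 0 genes were called in each setting, the paired fit of these groups alone included. The share of ribosomal protein counts differed by -1.59 points, -1.72 to -1.42 with a library left out and -1.39 with replicates 1 to 3, and that of the top 50 genes by 2.77, 2.56 to 2.91 and 3.04. None of these smaller sets of libraries allows a two-sided exact p under 0.05. Low counts limit the fold of genes that Con lacks, which are bounds or wide ratios. List medians were the same with genes without counts in a group set at their bound.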
